A study of Homo sapiens with 13 samples.

Results

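The heterogeneous nuclear ribonucleoprotein (hnRNP) genes described here are HNRNPA1, HNRNPA2B1, HNRNPC, HNRNPD, HNRNPF, HNRNPH1, HNRNPK, HNRNPL, HNRNPM and HNRNPU. They were chosen by gene symbol, with earlier results of these data known. They are 10 of the 14575 genes with a mapped mRNA 3' end, and all 10 were detected in all 9 libraries. 3' READS, which sequences the junction between an mRNA and its poly(A) tail and so gives 1 read per captured transcript end, was applied to HEK293 Flp-in T-REx cells, a human embryonic kidney line with a docking site for transgenes. Both cell lines carried a doxycycline-inducible, α-amanitin-resistant form of Rpb1, the largest subunit of RNA polymerase II (Pol II), with either the wild-type sequence (WT, 5 libraries) or the R749H substitution, which slows elongation (4 libraries). Expression was induced with doxycycline (2 µg/ml), for 24 h by the sample labels. The study's methods give 24 h for NET-seq and a shorter induction for 3' READS before α-amanitin was added. The endogenous enzyme was then inhibited in both lines with α-amanitin (2.5 µg/ml, 42 h), with doxycycline still present by the methods. The labels name the tag on Rpb1 as Avitag in the titles and B10 in the source names. Each form was studied in 1 cell line, so the Rpb1 form cannot be told apart from other differences between the lines, and p-values cover only the spread among the libraries of each line. The 4 NET-seq samples of the series were not analysed here.

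hnRNP proteins bind nascent pre-mRNA in the nucleus, package it, and direct splice site choice, export, stability and poly(A) site choice. They have no common fold: most carry RNA recognition motifs, HNRNPK has KH domains, and HNRNPU binds RNA through an RGG box. Many of their genes are expressed at high level in dividing cells, and their 3' UTRs often contain several poly(A) sites whose use changes which regulatory sequences the mRNA keeps. A poly(A) site is usually preceded by the hexamer AATAAA or its common variant ATTAAA, which is bound by the cleavage and polyadenylation machinery.

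The 3' ends on which the results turn are printed as the last 30 nt of the mRNA on the sense strand of GRCh37, 5' to 3', ending at the mapped end. Capitals mark an AATAAA or ATTAAA hexamer. Each name gives the distance of the end from the stop codon. The 4 HNRNPD ends are shown because their gene had the largest difference of the 10 in log2 odds of downstream reads, the HNRNPU ends because the sites of that gene span the longest stretch, the HNRNPA2B1 ends because reads of that gene divided mainly between them, the HNRNPA1 ends because copies of them occur elsewhere in the genome, and the HNRNPK and HNRNPM ends because nearly all reads of those genes lay there. All of these ends lie in annotated UTR sequence.
HNRNPD +493 (chr4:83275994-83276023, minus strand): atcagcattataaAATAAAatggatacttc
HNRNPD +1346 (chr4:83275141-83275170, minus strand): ctgagttctcATTAAAagaaatttgctttc
HNRNPD +1500 (chr4:83274987-83275016, minus strand): ttactggttttttAATAAAtccttttgtat
HNRNPD +2003 (chr4:83274484-83274513, minus strand): tgagggaggATTAAAgaaatatataccgtg
HNRNPU +35 (chr1:245017717-245017746, minus strand): caAATAAAacgaactgatacatatttctcc
HNRNPU +789 (chr1:245016963-245016992, minus strand): tgcccatttcttATTAAAaaaacttgttgt
HNRNPU +4151 (chr1:245013601-245013630, minus strand): aaataagcATTAAAagtactttgtccagct
HNRNPA2B1 +669 (chr7:26231467-26231496, minus strand): atttatgatttAATAAAataattctaaagg
HNRNPA2B1 +2209 (chr7:26229927-26229956, minus strand): aAATAAAagggaaatgttttctgataaaac
HNRNPA1 +566 (chr12:54678634-54678663, plus strand): atcgtgacgctgAATAAAtgtctttttttt
HNRNPA1 +931 (chr12:54678999-54679028, plus strand): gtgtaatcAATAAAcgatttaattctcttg
HNRNPK +1266 (chr9:86582999-86583028, minus strand): ctcttaaaaggaaatatagtaatcttatgt
HNRNPM +256 (chr19:8553965-8553994, plus strand): tatgactttgatAATAAAtaccggttcctg

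By a GENCODE annotation lifted to GRCh37, the members lie on 9 chromosomes. On the plus strand are HNRNPA1 (chr12:54673977-54680872) and HNRNPM (chr19:8509651-8553998). On the minus strand are HNRNPA2B1 (chr7:26210771-26241149), HNRNPC (chr14:21677295-21737653), HNRNPD (chr4:83273651-83295656) and HNRNPF (chr10:43881065-43904634). HNRNPH1 (chr5:179041179-179061785), HNRNPK (chr9:86582998-86595546), HNRNPL (chr19:39327010-39342987) and HNRNPU (chr1:245003940-245027862) are on the minus strand as well. HNRNPL and HNRNPM are both on chromosome 19.

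Library depth was 2479851 to 10135014 reads in WT and 3863468 to 6475987 in R749H. R749H replicate 3 held 41033 distinct 3' ends, of which 6.60% had 1 read, whereas the other 8 libraries held 73112 to 112834 ends with 30 to 36.2% at 1 read. Of 10 markers of HEK293 cells, 6 were at 1 or more CPM (reads of a gene per 1000000 reads, with trimmed mean of M-values, TMM, factors) in every library, while the neurofilament genes NEFL and NEFM were at 0 or at most 0.320 and the renal factor PAX2 was at 0 to 0.870 in R749H; 10 of 11 markers of blood, endothelium, liver, fibroblasts and skin were below 1 in every library. POLR2A, which encodes Rpb1, was at 84.5 ± 26.1 CPM in WT (SD, n = 5) and 368 ± 114 in R749H (SD, n = 4), a log2 difference of 2.12 (limma, adjusted p = 2.13e-05). These reads do not show the substituted codon itself. Whether they came from the endogenous gene or from the introduced form was not tested.

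The 10 genes spanned a wide range of levels. Because each transcript end gives 1 read, the levels need no division by gene length. Comparison between genes is still limited by reads discarded beside genomic A residues and ends beyond 5 kb. Reads that map to several places limit it as well. HNRNPA1, which encodes one of the most abundant nuclear RNA-binding proteins, had a mean over all 9 libraries of 2088 ± 536 CPM (SD), and it took 71.7 to 83.0% of the reads of the 10 genes in each library. HNRNPM followed with 150 ± 58.8 and HNRNPU with 84.8 ± 20.6. HNRNPL was lowest with 4.27 ± 2.43, which came from 8 to 35 reads per library. The order HNRNPA1, HNRNPM, HNRNPU and HNRNPD held between each pair of neighbours in 9 of 9 libraries, and HNRNPC exceeded HNRNPL in 9 of 9. The 5 neighbouring pairs from HNRNPD through HNRNPF, HNRNPH1, HNRNPA2B1 and HNRNPK to HNRNPC, with means from 60.8 downward, kept their order in only 5 to 7 libraries and did not differ beyond their spread.

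**Figure D1:**
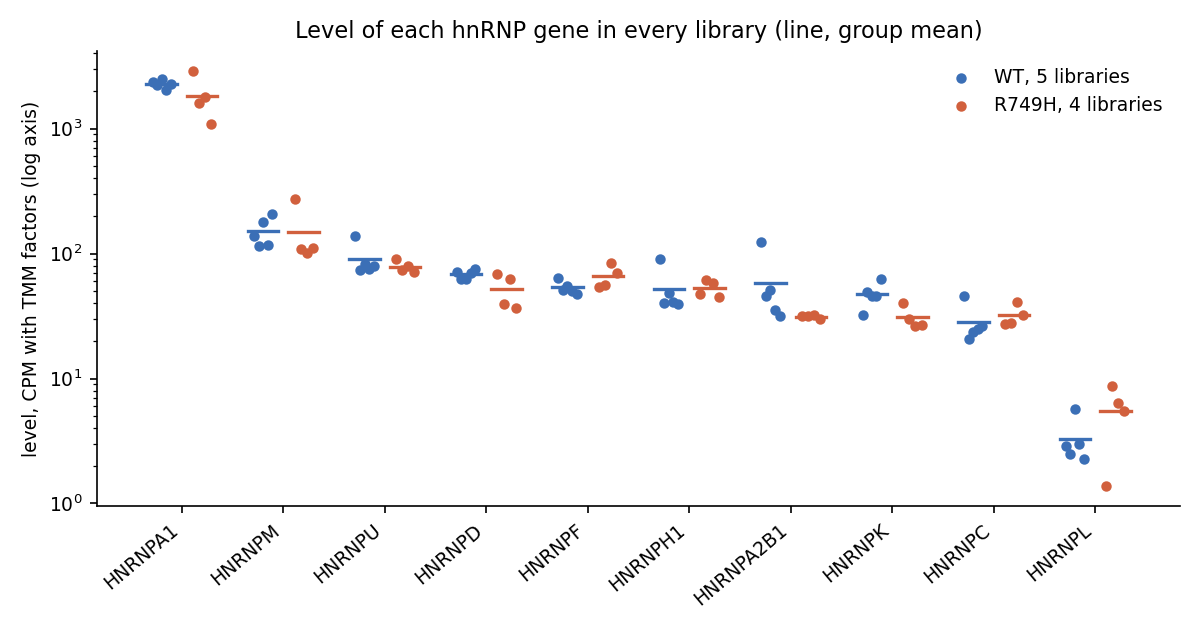
Level of each hnRNP gene (CPM, TMM-scaled, log axis) in the 5 WT and 4 R749H libraries; each point is 1 library and each line the mean of its group. The groups overlap in all 10 genes, and WT replicate 1 is the highest WT point for HNRNPU, HNRNPF, HNRNPH1, HNRNPA2B1 and HNRNPC.

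The first comparison asks whether the level of these mRNAs differed between cells transcribing with slow and wild-type Pol II. None of the 10 genes passed the threshold (limma on log2 CPM, Benjamini-Hochberg adjusted p under 0.05), against 23.9% of the 9494 genes tested. Without adjustment 3 of the 10 had p under 0.05 (HNRNPA2B1, HNRNPD and HNRNPK, each with the lower mean in R749H), against 37.4% of all genes. The edgeR quasi-likelihood test and DESeq2, run on the same reads, each called 2 of the 10, HNRNPA2B1 and HNRNPK, beside 24.8% of all genes by edgeR and 18.2% by DESeq2. No gene had all R749H libraries on one side of all WT libraries, which 10.1% of all genes did in the lower and 9.72% in the higher direction. The log2 difference (R749H minus WT) was below 0 in 6 genes, with a median of -0.14 beside -0.07 over all genes tested. In bulk RNA a lower share of reads from a gene cannot be told apart from fewer cells that transcribe it.

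HNRNPA1 and HNRNPA2B1 encode the A and B proteins of the core hnRNP particle. In WT replicates 1 to 5 HNRNPA1 was at 2385, 2254, 2520, 2031 and 2271 CPM, and in R749H replicates 1 to 4 at 2870, 1605, 1778 and 1080. The R749H libraries spread the most, and they held the highest (replicate 1) and the lowest (replicate 4) of all libraries. The log2 difference was -0.41 (95% confidence interval -0.87 to 0.06; limma adjusted p = 0.187), and without R749H replicate 1 it was -0.64 (adjusted p = 0.0257). Without R749H replicate 4 it was -0.16 (adjusted p = 0.600). The 30 nt before the main HNRNPA1 end occur 4 times in GRCh37 and those before the +931 end 6 times, so reads of near-identical copies may be counted here and the level is uncertain.

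HNRNPA2B1 was at 125, 45.7, 51.4, 35.1 and 31.5 CPM in WT replicates 1 to 5 and at 31.5, 31.5, 31.9 and 30.2 in the R749H replicates. The R749H libraries lay within a narrow range at the level of the lowest WT library, and WT replicate 1, the shallowest library, stood far above the rest. The means of 57.7 ± 38.3 and 31.3 ± 0.754 gave a log2 difference of -0.69 (95% confidence interval -1.33 to -0.04; limma adjusted p = 0.109). Without WT replicate 1 the difference was -0.36 (adjusted p = 0.183), and without WT replicate 5 it was -0.86 (adjusted p = 0.0421).

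HNRNPC, whose protein forms the tetramers that bind uridine tracts in long nascent transcripts, was at 46.1, 20.9, 23.6, 24.9 and 26.2 CPM in WT and at 27.1, 27.9, 41.0 and 32.3 in R749H. All 4 R749H libraries exceeded 4 of the 5 WT libraries, and WT replicate 1 exceeded them all. The log2 difference was 0.22 (95% confidence interval -0.28 to 0.72; limma adjusted p = 0.532), and 0.41 without WT replicate 1 (adjusted p = 0.139) and 0.12 without R749H replicate 3, and it was -0.12 under the authors' scaling alone. Relative to the median of all genes it was 0.28 under both scalings.

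HNRNPD encodes AUF1, which binds AU-rich elements and directs mRNA decay. Its level was 70.7, 63.0, 62.3, 69.5 and 75.4 CPM in WT and 68.3, 39.2, 62.6 and 36.4 in R749H. WT libraries lay close together, whereas R749H replicates 1 and 3 were within the WT range and replicates 2 and 4 were below it. The log2 difference was -0.45 (95% confidence interval -0.89 to -0.02; limma adjusted p = 0.121), and -0.59 without R749H replicate 1 (adjusted p = 0.0425). Without R749H replicate 4 it was -0.29 (adjusted p = 0.360).

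HNRNPK, a KH-domain protein that binds cytosine-rich RNA, came closest to the threshold. It was at 32.0, 49.3, 46.0, 45.7 and 63.0 CPM in WT and at 40.3, 30.1, 26.1 and 26.7 in R749H. Among WT libraries only replicate 1 was within the R749H range. The means of 47.2 ± 11.04 (SD, n = 5) and 30.8 ± 6.59 (SD, n = 4) gave a log2 difference of -0.60 (95% confidence interval -1.06 to -0.15; limma adjusted p = 0.0520). The adjusted p was 0.0137 without WT replicate 1 (log2 difference -0.74) and 0.0246 without R749H replicate 1 (-0.73), but 0.137 without R749H replicate 4 (-0.52), and the gene was called under 10 of the 21 alternative settings.

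HNRNPF and HNRNPH1 encode paralogous proteins that bind guanosine tracts. HNRNPF was at 47.2 to 64.3 CPM in WT and 54.4 to 84.7 in R749H, with a log2 difference of 0.29 (95% confidence interval -0.10 to 0.69; limma adjusted p = 0.261). HNRNPH1 was at 39.3 to 47.9 in 4 WT libraries, 91.2 in WT replicate 1 and 44.7 to 61.9 in R749H, with a log2 difference of 0.10 (95% confidence interval -0.41 to 0.60; adjusted p = 0.800) of 0.32 without WT replicate 1 (adjusted p = 0.196) and of 0.01 without WT replicate 5. Both genes thus had the higher mean in R749H under this scaling, with intervals that include 0, and their differences were -0.05 and -0.25 under the authors' scaling alone, which moved all genes down. Relative to the median of all genes they were 0.36 and 0.16 under both scalings. The 30 nt before the main HNRNPH1 end occur 2 times in GRCh37, as do those before the main HNRNPL end.

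HNRNPL, which binds CA repeats, was at 2.88, 2.51, 5.71, 3.005 and 2.27 CPM in WT and at 1.39, 8.77, 6.39 and 5.53 in R749H. R749H replicate 1 was the lowest of all libraries and the other 3 R749H libraries were among the 4 highest. The log2 difference was 0.55 (95% confidence interval -0.45 to 1.56; limma adjusted p = 0.421), and 1.12 without R749H replicate 1 (adjusted p = 0.0400). Without R749H replicate 2 it was 0.27 (adjusted p = 0.758).

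HNRNPM, a splicing regulator with GU-rich targets, was at 115 to 208 CPM in WT, at 274 in R749H replicate 1 and at 101 to 110 in the other 3 R749H libraries. Its log2 difference was -0.13 (95% confidence interval -0.70 to 0.44; limma adjusted p = 0.761). It was -0.46 without R749H replicate 1 (adjusted p = 0.114) and 0.03 without R749H replicate 3. R749H replicate 1 was thus the highest R749H library for HNRNPA1, HNRNPD, HNRNPK, HNRNPM and HNRNPU and the lowest for HNRNPC, HNRNPF and HNRNPL. HNRNPU, the scaffold-attachment protein SAF-A, was at 138 in WT replicate 1, at 73.5 to 82.0 in the other WT libraries and at 70.8 to 89.7 in R749H. The log2 difference was -0.15 (95% confidence interval -0.57 to 0.27; limma adjusted p = 0.609) and 0.01 without WT replicate 1.

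The scaling of the libraries changed how many of the genes were called, as did the choice of test and of libraries. Under the authors' scaling to a fixed number of poly(A) reads, the median log2 difference of all genes moved by -0.34 to -0.41, and calls were 431 higher and 2628 lower instead of 1038 and 1227. Under that scaling 4 of the 10 genes, beside 32.2% of all genes in either direction, were called, all lower in R749H. They were HNRNPK (-0.94, limma adjusted p = 0.00259), HNRNPD (-0.79, adjusted p = 0.0130), HNRNPA1 (-0.75, adjusted p = 0.0161) and HNRNPA2B1 (-1.03, adjusted p = 0.0235). The same 4 were called when libraries were scaled to all reads in the files, beside 31% of all genes. Without R749H replicate 1, 4 of the 10 were called under TMM scaling (HNRNPA1, HNRNPD, HNRNPK and HNRNPL), beside 27.7% of all genes. Relative to the median of all genes, the difference of HNRNPK was -0.54 under either of these scalings and under TMM, and that of HNRNPA2B1 was -0.62.

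**Figure D2:**
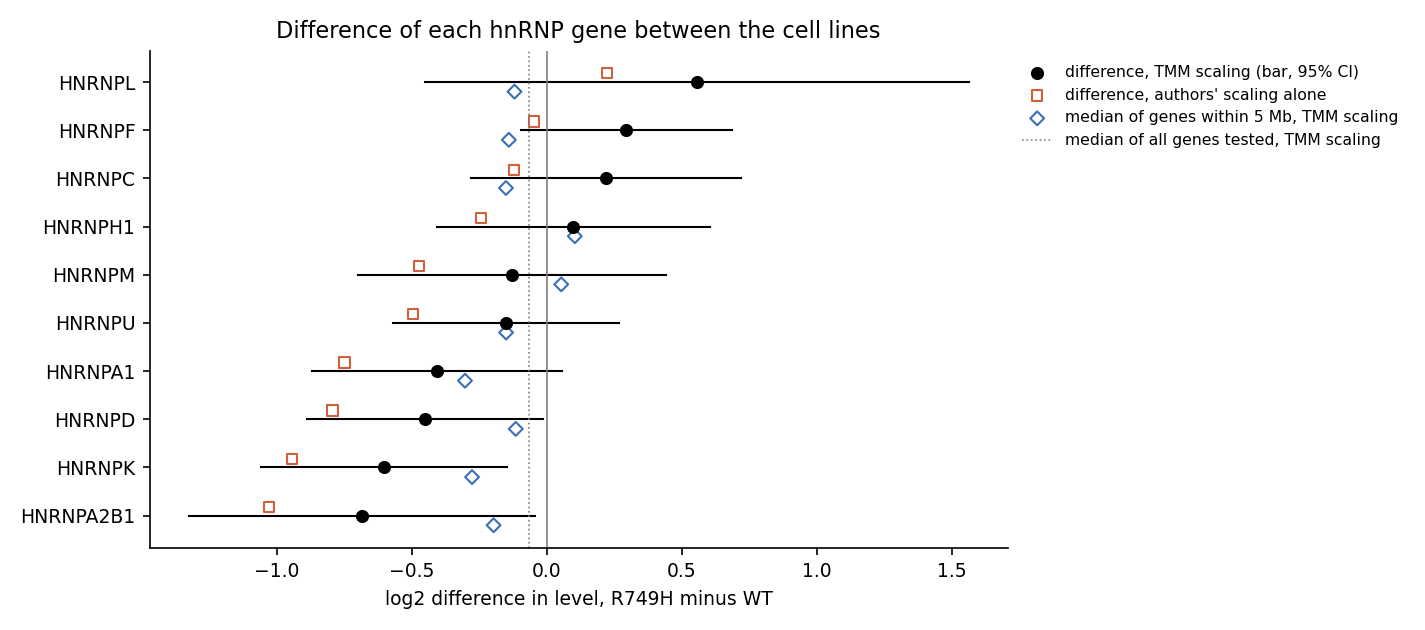
Log2 difference in level (R749H minus WT) of each hnRNP gene with its 95% confidence interval under TMM scaling, beside the value under the authors' scaling alone (squares) and the median of the genes within 5 Mb (diamonds). The authors' scaling moves every gene down by about the same amount, and the neighbours' medians lie between -0.30 and 0.10.

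Values of the genes around each member were set beside its own, since the cell lines may differ in chromosome segments. Within 5 Mb of HNRNPA1 on chromosome 12, the median log2 difference of 135 genes was -0.30 and 92 of them were below 0, compared with -0.41 for HNRNPA1 itself and a median of -0.16 for the 517 genes of the chromosome. Around HNRNPK on chromosome 9 the median of 13 genes was -0.28, and around HNRNPA2B1 on chromosome 7 that of 32 genes was -0.20. Around HNRNPD on chromosome 4 the median of 20 genes was -0.12. Around HNRNPC, HNRNPF and HNRNPL, which had differences above 0 themselves, the medians were -0.15, -0.14 and -0.12. They were 0.10 around HNRNPH1, 0.05 around HNRNPM and -0.15 around HNRNPU. The part of chromosomal segments in these differences was not tested.

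Of a fixed list of 23 other genes of the family, 20 could be tested, and 3 of them were higher in R749H and 2 lower, beside 10.9 and 12.9% of all genes. RALY, a close relative of HNRNPC, was at 82.2 to 130 CPM in WT and 163 to 237 in R749H (log2 difference 0.83, limma adjusted p = 0.00369). HNRNPA0, a small A/B-type protein, was at 239 to 300 and 385 to 470 (0.67, adjusted p = 0.00482), and HNRNPAB at 86.8 to 133 and 137 to 167 (0.57, adjusted p = 0.0239). None of these 3 had overlapping groups. HNRNPR was at 13.6 to 32.0 in WT and 7.67 to 12.5 in R749H (-1.01, adjusted p = 0.0118), and TAF15 at 22.1 to 47.6 and 15.4 to 23.1 (-0.72, adjusted p = 0.0314). Among 10 genes tested of the SR splicing factors, which often act against hnRNP proteins at splice sites, 1 was higher and 3 were lower.

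The genes differed in how many 3' ends they used. In HNRNPM and HNRNPK 1 position took 97.1 and 89.3% of pooled reads, at 256 and 1266 nt after the stop codon, and in HNRNPH1 and HNRNPL ends within 24 nt of each other formed 1 site with 95.2 and 97.9%. HNRNPA1 used 2 sites. Some sites held several positions past 10% of pooled reads: +2204 (17.98%) and +2209 (22.25%) in HNRNPA2B1, +613 (30.9%) and +617 (19.75%) as well as +780 (15.7%) and +789 (10.6%) in HNRNPF, +1366 (19.85%) and +1367 (63.9%) in HNRNPH1, and +343 (67.9%), +348 (10.5%) and +351 (15.8%) in HNRNPL. The other 5 genes used 3 to 5 sites with at least 5% of reads, and their most used position took only 24.0 to 35.6% of reads, compared with a median of 58.3% over 7874 genes that averaged 20 or more reads a library. HNRNPU used the longest stretch, from 35 to 4151 nt after the stop codon, so that its most distal major end lay farther out than in 94.5% of those genes. None of the 48 major ends of the 10 genes, defined as at least 5% of the maximal isoform in both cell lines, formed a cluster of 4 or more ends spaced by no more than 4 nt, whereas 1470 such clusters were found among the 43800 major ends of all genes. The slope of the R749H response within clusters could therefore not be measured in them.

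Hexamers were searched in the last 30 nt before each end on the sense strand. AATAAA was present at 30 of the 48 major ends (62.5%) and ATTAAA without AATAAA at 12 (25%), beside 56.3 and 15.6% of all major ends. The dominant HNRNPK end, printed above, had neither hexamer, as did 12.5% of the members' ends and 28.1% of all major ends. In HNRNPD the +493 and +1500 ends carried AATAAA and the +1346 and +2003 ends ATTAAA. A match is a description of the sequence and not a measure of site strength.

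The second comparison asks whether 3' ends moved along the 3' UTR in R749H cells. Reads downstream of the pooled median end of each gene were set against those at or upstream of it as log2 odds. None of the 10 genes passed the threshold (limma, Benjamini-Hochberg adjusted p under 0.05), against 0.0516% of the 7757 genes tested. DESeq2 also called none. Without adjustment 2 of the 10 had p under 0.05, HNRNPD and HNRNPU, both with ends farther upstream in R749H, against 5.79% of all genes in that direction. The log2 odds were lower in R749H in 5 of 10 genes (50%), beside 57.6% of all genes, and the median difference was -0.06 beside -0.09. The direction means little for HNRNPH1, which had 0% of reads beyond the division in each R749H library. Its log2 odds difference was -0.34, and 0.06 with 2 reads added. HNRNPK and HNRNPM also had few reads beyond the division, and HNRNPL had only 8 to 35 reads per library.

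**Figure D3:**
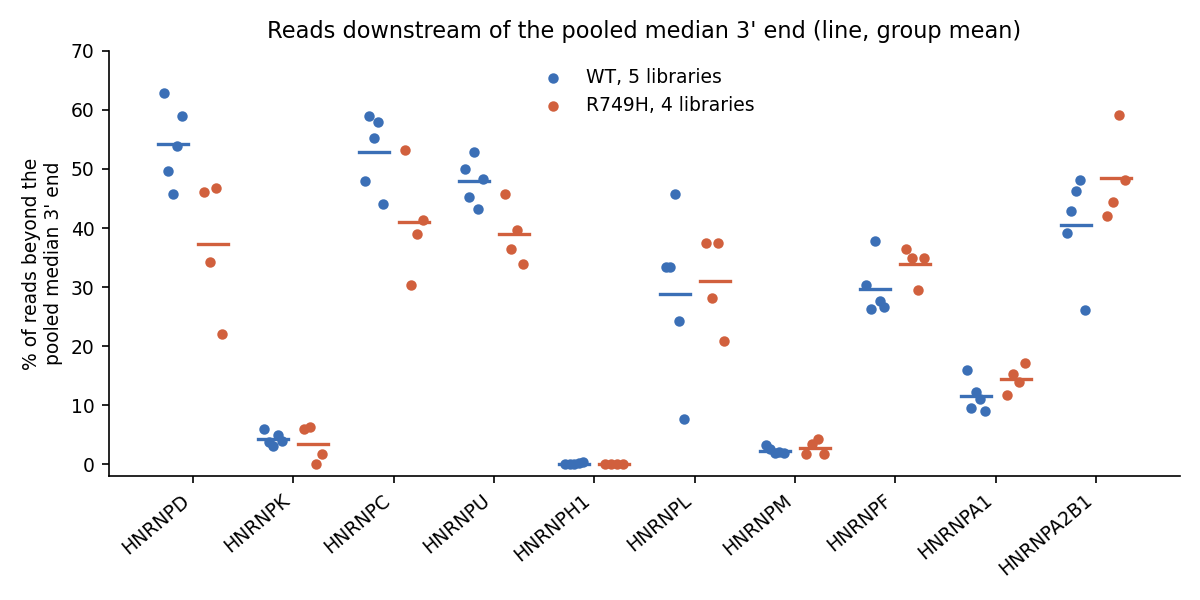
Percent of each gene's reads downstream of its pooled median 3' end in the 5 WT and 4 R749H libraries; each point is 1 library and each line the mean of its group. HNRNPD and HNRNPU had lower shares in R749H (means of 37.3 and 39.0% against 54.2 and 47.9%), and HNRNPH1, HNRNPK and HNRNPM had few reads beyond the division.

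HNRNPD had the largest difference of the 10 in these log2 odds, whereas the mean end position moved farther in HNRNPU and HNRNPA2B1. Reads beyond 1348 nt after the stop codon made up 62.9, 49.7, 45.8, 53.9 and 58.9% of its reads in WT and 46.1, 34.3, 46.8 and 22.2% in R749H. The lowest WT library overlapped the upper pair of R749H libraries. The log2 odds differed by -1.03 (95% confidence interval -1.89 to -0.18; limma adjusted p = 0.422) and by -0.65 without R749H replicate 4, and the read-weighted mean end lay at 1497 ± 51.5 nt in WT and 1315 ± 134 nt in R749H (SD, n = 5 and 4).

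By site, the most proximal HNRNPD end at +493 took 0.905, 9.27, 5.50, 8.39 and 9.51% of the gene's reads in WT and 11.7, 20.3, 16.2 and 25.9% in R749H. All R749H libraries were above all WT libraries at this site, as at 1 of 27 sites of the 10 genes, beside 4.77% of all 12955 sites without overlap in either direction. The log2 odds differed by 1.91 (95% confidence interval 0.42 to 3.41; limma adjusted p = 0.329), and by 1.32 without WT replicate 1.

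The +1500 end of HNRNPD took 24.9, 22.5, 18.6, 23.6 and 26.0% in WT and 10.4, 9.79, 20.9 and 5.06% in R749H. Only R749H replicate 3, the library with few ends at 1 read, lay within the WT range. The log2 odds differed by -1.34 (95% confidence interval -2.34 to -0.34; limma adjusted p = 0.311), and by -0.98 without R749H replicate 4. The main end at +1346 took 43.7 ± 6.56 and 49.0 ± 8.69%, and the +2003 end 15.9 ± 4.49 and 10.4 ± 5.81%, neither with an unadjusted p under 0.05. R749H replicates 2 and 4, which had the lowest HNRNPD levels, also had the highest shares of the +493 end.

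**Figure D4:**
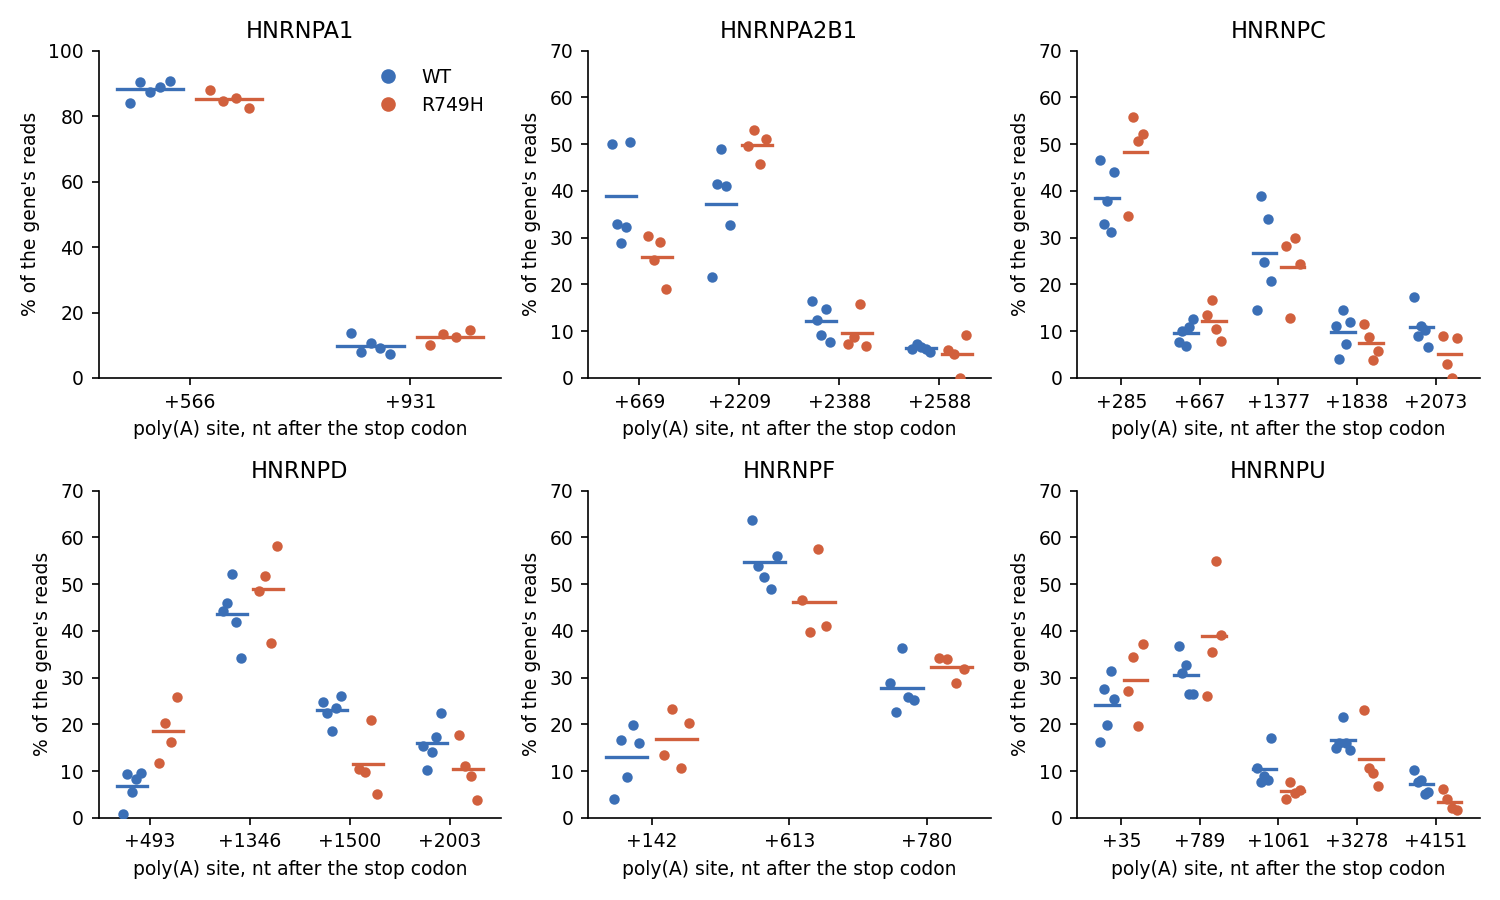
Share of each gene's reads at its poly(A) sites (percent), named by the distance in nt of the most used end from the stop codon, in 6 hnRNP genes with more than 1 site; each point is 1 library and each line the mean of its group. In HNRNPD the +493 site lies at 11.7 to 25.9% in R749H and at 0.905 to 9.51% in WT.

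In HNRNPU, reads beyond 789 nt after the stop codon made up 50, 45.2, 52.9, 43.3 and 48.3% in WT and 45.7, 36.5, 39.7 and 33.9% in R749H. R749H replicate 1 was the only R749H library within the WT range. The log2 odds differed by -0.53 (95% confidence interval -1.03 to -0.03; limma adjusted p = 0.493), and the mean end lay at 1411 ± 146 nt in WT and 1085 ± 276 nt in R749H. Of the distal sites, that at +1061 took 10.5 ± 3.84 and 5.75 ± 1.53% (limma adjusted p = 0.421) and that at +4151 took 7.34 ± 2.08 and 3.47 ± 2.11% (adjusted p = 0.360). The largest distal site, at +3278, took 16.6 ± 2.93 and 12.6 ± 7.18% (adjusted p = 0.627), and R749H replicate 1 held its highest share of all libraries, 23.1%. The proximal sites at +35 and +789 took 24.1 ± 6.05 and 30.6 ± 4.37% in WT, and 29.6 ± 7.83 and 38.9 ± 12.1% in R749H.

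HNRNPA2B1 had the higher mean at the more distal of its main sites in R749H. The +669 site took 50, 32.9, 28.9, 32.2 and 50.6% in WT and 30.4, 25.2, 29.2 and 19.1% in R749H. The +2209 site took 21.5, 41.6, 48.9, 41.0 and 32.8% in WT and 49.7, 53.0, 45.8 and 51.1% in R749H. WT replicates 1 and 5 held the highest shares of the proximal and the lowest of the distal site, and the other 3 WT libraries lay near the R749H range. The log2 odds differed by -0.85 (limma adjusted p = 0.466) and 0.79 (adjusted p = 0.483). The most distal sites, at +2388 and +2588, took 12.1 ± 3.64 and 6.38 ± 0.650% in WT, and 9.65 ± 4.202 and 5.11 ± 3.81% in R749H. The mean end lay at 1636 ± 181 nt in WT and 1844 ± 57.7 nt in R749H.

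HNRNPC reads beyond 667 nt made up 52.8 ± 6.54% in WT (SD, n = 5) and 41.0 ± 9.41% in R749H (SD, n = 4), a log2 odds difference of -0.70 (95% confidence interval -1.42 to 0.02; limma adjusted p = 0.535). Its proximal site at +285 took 31.1 to 46.5% in WT and 34.6 to 55.9% in R749H, and its most distal at +2073 took 6.67 to 17.4% and 0 to 8.97%, where 0 of the 154 reads of R749H replicate 3 allow a share of up to 1.95%, for counting error only. Its sites at +667 and +1377 took 9.64 ± 2.38 and 26.6 ± 9.90% in WT, and 12.1 ± 3.81 and 23.8 ± 7.72% in R749H. In HNRNPA1 the +931 site took 9.76 ± 2.50 and 12.6 ± 1.94% (limma adjusted p = 0.642). In HNRNPF the sites at +142, +613 and +780 took 13.0 ± 6.50, 54.8 ± 5.61 and 27.8 ± 5.25% in WT, and 17.0 ± 5.88, 46.3 ± 8.08 and 32.3 ± 2.44% in R749H. The direction was thus not shared. HNRNPC, HNRNPD and HNRNPU had the lower log2 odds of downstream reads in R749H and the higher mean share of their most proximal site. HNRNPA1 and HNRNPA2B1 had the higher log2 odds (differences of 0.39 and 0.48). HNRNPF had higher mean shares of both its most proximal and its most distal site, with a log2 odds difference of 0.28.

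Of the 27 sites of the 10 genes, none passed the threshold (limma), beside 0.054% of all sites, and 4 had an unadjusted p under 0.05, beside 11.6%. Among single ends, 46 were tested in 8 genes, without HNRNPK and HNRNPM, which have 1 major end each. None passed the threshold, as none did among all 29333 (0%), and 9 had an unadjusted p under 0.05, beside 6.33% of all. Of these 9, 3 were in HNRNPD (at +493, +1345 and +1500), 2 in HNRNPA2B1 (+669 and +2209), 2 in HNRNPU (+1061 and +4151), and 1 each in HNRNPC (+2073) and HNRNPF (+613). Libraries held 4686 to 22307 reads of HNRNPA1 but 143 to 763 of HNRNPD, 100 to 273 of HNRNPC and 8 to 35 of HNRNPL. Depth alone did not set the precision of these shares. The standard error of the log2 odds difference was 0.343 at the HNRNPA1 +931 site and 0.377 at the HNRNPD +1346 site.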

How the data were processed

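Poly(A) RNA was measured by 3' READS in 9 libraries (5 WT, 4 R749H), grouped by the sample labels. The authors trimmed random and terminal T bases and mapped reads with bowtie to hg19. The submitters' processing notes name Bowtie2 2.3.2, which the study's methods give for the NET-seq reads. Reads with non-templated A residues were kept and mitochondrial reads removed. The authors assigned each end to the CCDS stop codon lying no more than 5 kb before it. How they treated reads that map to several places is not given in the sources used here. The deposited values are a signal: read counts scaled by the authors to 7000000 poly(A) reads in each library. They were whole multiples of the value of 1 read for 100% of entries (tolerance 0.05 reads), and whole reads were recovered from them. The pooled tables, scaled separately, were not used.

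Levels were tested with limma 3.58.1 (R 4.3.3) on log2 CPM with edgeR 4.0.16 TMM factors, filterByExpr and a prior count of 0.5. End shifts, sites (ends within 24 nt joined, at least 5% of reads) and single ends were tested with limma on log2 odds with 0.5 reads added, in genes that averaged 20 or more reads a library. Tests ran on all features with Benjamini-Hochberg adjustment, and the scripts were tested on simulated data. DESeq2 1.42.0, edgeR, other scalings, filters and priors, thinning, a replicate block and leaving out each library were alternatives. The members and lists were chosen with earlier results of these data known. All members were named, with other family genes past the threshold (1 gene of that list is not reported here), and ends past 10% of reads or the threshold. Sequences and UTR positions came from GRCh37 and a GENCODE annotation lifted to it. No libraries were duplicates: correlation of log2 levels was 0.916 to 0.983 within WT and 0.892 to 0.966 within R749H. Same-numbered libraries showed no sign of pairing (correlation of deviations -0.07 to 0.05), and the labels do not state any. The p-values rest on samples called biological replicates in the study. Intervals for levels come from the limma fit. Read counts limit precision, since PCR duplicates are not marked.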

Additional observations from a re-analysis of the deposited data

Results flagged for a closer look

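If values were normally distributed and groups independent, chance would flag about 1 group in 20. The groups here share the same libraries, so that rate is only a guide. Among 56 groups of libraries tested over levels and site shares, 7 held a library far from the others of its group. WT replicate 1 was that library for 4 genes: HNRNPA2B1 at 124.7 CPM (others 31.5 to 51.4), HNRNPC at 46.06 (20.9 to 26.2), HNRNPH1 at 91.16 (39.3 to 47.9) and HNRNPU at 137.5 (73.5 to 82.0). This library was the shallowest, with 2479851 reads. For HNRNPL, WT replicate 3 was at 5.708 (others 2.27 to 3.005), and for HNRNPM, R749H replicate 1 was at 273.9 (101 to 110). At the HNRNPU site 3278 nt after the stop codon, WT replicate 3 held 21.67% of reads (others 14.4 to 15.96%). The cause of these values was not tested.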

How the results depend on the processing

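The number of members with a changed level was 0 by the reported fit. Under the authors' scaling alone and under scaling to total reads within 5 kb it was 4 (beside 32.2 and 31% of all genes). It was 2 by the edgeR quasi-likelihood test and by DESeq2 (24.8 and 18.2%). With a prior count of 2, with single reads dropped and with thinned libraries it was 1 (23.7 to 25.1%). When each library was left out it was 0 to 4, beside 1520 to 2664 called among all genes tested. It was 1 with WT replicate 1 and R749H replicate 3 left out together, an alternative chosen after seeing the data (24.4%). With the replicate block over replicates 1 to 4, whose numbers are not known to mark pairs, it was 1 (HNRNPA2B1, beside 22.8%). HNRNPA1, HNRNPA2B1, HNRNPD and HNRNPK kept a negative and HNRNPL a positive difference under all 21 alternatives. Signs turned for HNRNPC (-0.12 and -0.10), HNRNPF (-0.0485 and -0.0225) and HNRNPH1 (-0.245 and -0.22) under the authors' scaling and total reads. They also turned for HNRNPU (-0.22 to 0.01 over the libraries left out, 0.0285 without both libraries) and HNRNPM (-0.46 to 0.0341, and 0.0098). For 3' end shifts, sites and single ends, 0 features of the 10 genes were called under every alternative run, the replicate block included. Slopes within clusters could not be tested in the 10 genes, except with the wider spacing given below. The shift log2 odds turned for HNRNPF (-0.63) and HNRNPL (-0.0071) with division at the midpoint of major isoforms, for HNRNPH1 (0.0583) with 2 reads added, for HNRNPL (-0.21) with the block, and for HNRNPK (0.15) without both libraries. With the mean position in nt they turned for HNRNPF (-15.3), HNRNPK (12.4) and HNRNPL (-27.7). Over the libraries left out, the shift ranged from -1.27 to 0.01 for HNRNPK, -0.21 to 0.45 for HNRNPL and -0.0193 to 0.42 for HNRNPM, and the HNRNPC site at +1377 from -0.45 to 0.13 (-0.65 without both libraries). The cause of these turns was not tested. No end was listed under more than 1 gene, so leaving such ends out changed nothing. With a spacing of 8 nt 1 cluster of HNRNPH1 could be tested and was not called. Depth limits HNRNPL (8 to 35 reads per library) and the shares of minor sites.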
